A study of Mus musculus with 101 samples.

Results

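Globins carry oxygen in red blood cells, and their transcripts fill erythroid cells. In the mouse, the first red cells, made in the yolk sac, use the embryonic chains Hba-x (zeta, alpha-like), Hbb-y and Hbb-bh1 (beta-like). Red cells made later in the fetal liver use the adult chains Hba-a1, Hba-a2, Hbb-bs and Hbb-bt, and both kinds of red cell circulate at mid-gestation. The division is not strict, and Hba-a1 and Hba-a2 do not mark the later cells alone. An embryonic share of reads is therefore not a proportion of yolk sac cells. Alas2 is the first enzyme of heme synthesis in erythroid cells. Primordial germ cells (PGCs) are not known to make hemoglobin, and globin transcripts are commonly read as markers of blood in tissue samples.

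The 8 genes were chosen by name, with the normalized counts of these same embryos already known, so their levels are given as a description. The tests by sex, dose and generation below were run on these same values, and their p-values are part of that description and support nothing further. Of the 8 genes, 6 were among the 15423 genes measured. Hba-a1, Hba-a2, Hba-x, Hbb-y and Alas2 carried their current symbols, and Hbb-bs was listed under its older symbol Beta-s, which RefSeq gives as a synonym. Hbb-bt and Hbb-bh1 were not analysed here.

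RNA-seq had been carried out on PGCs sorted by FACS from embryonic gonads at E13.5, with cDNA primed by oligo-dT. All mice were OG2, a strain with EGFP under the promoter and distal enhancer of Pou5f1 (Oct4) on a C57BL/6J background, in which EGFP marks germ cells. Pregnant F0 dams were given benzo[a]pyrene (BaP) by mouth in sesame oil, in doses per day of 2, 0.2 and 0.033 mg/kg, or the oil alone (vehicle), from E6.5 to E11.5 for F1 embryos and from E6.5 to E15.5 for the F2 and F3 lineages. The embryos were 53 males and 48 females, from 56 dams that gave 1 to 3 embryos each. There were 24 groups. The F1 groups held 5 males and 5 females after vehicle, 2 and 2 at 0.033 mg/kg-day, 6 and 5 at 0.2 mg/kg-day, and 8 and 5 at 2 mg/kg-day. The F2 groups held 6 and 6 after vehicle and 3 and 3 at each dose. The F3 groups held 6 and 6 after vehicle, 4 and 4 at 0.033 mg/kg-day, 4 and 2 at 0.2 mg/kg-day, and 3 and 4 at 2 mg/kg-day.

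Values are normalized counts, scaled by library size. Whole reads could be recovered for 99 embryos. Reads here are those counted at the 15423 genes measured, which is not the number sequenced or mapped for a library. They came to 5004382 to 87240533 reads, with a median of 7789673. A set of 11 F1 libraries from 6 dams was deeper, with at least 21247642 reads against at most 12211582 in the other 88. In a library, 1 read was worth 0.00959 to 0.238 normalized counts. A value of 0 allows up to 3 reads, which were worth 0.0288 to 0.713 normalized counts, with a median of 0.372. The germ cell identity of the samples was visible in the sum of 10 germ cell genes (Dppa5a, Dppa3, Dazl, Ddx4, Sall4, Nanos3, Pou5f1, Kit, Tfap2c and Prdm1), which had a median of 7402 normalized counts and reached 12717.

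Globin transcripts were a trace in most libraries. With each chain counted once, the globins took a median of 6.5e-05% of the normalized counts, and at most 0.334% (95% Wilson interval 0.330 to 0.339%), in F3 vehicle male D1388.1. This was 23920 of 7154671 reads. Intervals and limits given here cover counting error only. In sorted bulk samples, fewer cells of a type and less RNA per cell cannot be told apart.

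Hba-a1, an adult alpha chain, had the highest level of the globins. It ranged from 0 to 2378 normalized counts with a median of 0.614, and was at 0 in 24 embryos. The levels fell on either side of a wide gap. Of all libraries, 19 had 36.9 or more and the other 82 had 9.93 or less, with none between. The 19 libraries held 99.3% of all Hba-a1 counts, and D1388.1 alone held 26.8%. Below, a level of 30 normalized counts, set after the values were seen, separates the 2 sides of this gap. The 19 came from 17 dams and lay in 14 of the 24 groups.

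Hba-a1 and Hba-a2 could not be told apart. They had the same value in all embryos but 1, and in that one, F1 2 mg/kg-day female C4219.4, the values were 2.41 and 2.45. The genes are near copies. Of 505 windows of 50 bases along the Hba-a2 transcript, 439 (86.9%) were found whole in that of Hba-a1. The adult beta chain Hbb-bs had a similar relation to Hbb-b1 and Hbb-b2, symbols for adult beta genes of another haplotype. Hbb-b1 and Hbb-b2 had equal values in every embryo. In the 11 libraries with more than 30 Hbb-bs counts, Hbb-bs was 0.975 to 1.16 times Hbb-b1. Of 579 windows of the Hbb-bs transcript, 381 (65.8%) were found in Hbb-bt, so reads of both may have been shared between them. By contrast, no window of Hba-x was found in Hba-a1 and none of Hbb-y in Hbb-bs, so embryonic and adult chains were separable. Sums below count Hba-a1, Hba-x, Hbb-bs and Hbb-y once each.

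In F1 females, Hba-a1 was 0, 0.139, 0.270, 0.648 and 1.55 after vehicle. It was 0 and 69.2 at 0.033 mg/kg-day. At 0.2 mg/kg-day it was 0.678, 2.54, 9.93, 119 and 203, and at 2 mg/kg-day 0.136, 1.52, 1.98, 2.41 and 826. High libraries were thus seen in F1 females at each dose and in no F1 vehicle female, but every dose group also held libraries in the range of the vehicle females. In F1 males, Hba-a1 was 0, 0, 0.374, 3.18 and 479 after vehicle. It was 0.141 and 2.40 at 0.033 mg/kg-day, and 0 to 1.47 with a median of 0.385 at 0.2 mg/kg-day. At 2 mg/kg-day it was 0 to 1177 with a median of 0.848, the upper end coming from D2587.2 (1177) and D2593.1 (482). Dosed F1 males at 0.033 and 0.2 mg/kg-day thus lay within the range of the vehicle males, and at 2 mg/kg-day 2 of 8 lay above it.

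In F2 females, Hba-a1 was 0 to 112 after vehicle, with a median of 0.863. It was 115, 286 and 308 at 0.033 mg/kg-day. At 0.2 mg/kg-day it was 174 in 1 female and 1.70 or less in the other 2, and at 2 mg/kg-day 0.359, 1.52 and 171. The 0.033 mg/kg-day females were the only group of the 24 with every library above 30, and the lowest of the 3 (D1996.1, 114.5) lay close to the highest vehicle female (D2991.1, 111.5). In F2 males, Hba-a1 was 0.194 to 707 after vehicle, with a median of 0.392. It was 0, 0 and 406 at 0.033 mg/kg-day. At 0.2 mg/kg-day it was 0, 0 and 0.881, and at 2 mg/kg-day 0, 0.361 and 0.927. Among F2 males, high levels were thus found after vehicle (D2991.3 and C4992.2) and at the lowest dose (D3136.1), and at neither of the higher doses.

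In F3 females, Hba-a1 was 0 to 0.924 after vehicle, with a median of 0.739. It was 0, 0.318, 2.12 and 3.21 at 0.033 mg/kg-day and 0.296 and 1.32 at 0.2 mg/kg-day. At 2 mg/kg-day it was 0.229, 0.320, 0.467 and 600.1. A single F3 female, E0103.2, was high. In F3 males, Hba-a1 was 0 to 2378 after vehicle, with a median of 0.307. It was 0, 0.639, 2.28 and 160.5 at 0.033 mg/kg-day, 0, 0.378, 0.431 and 0.505 at 0.2 mg/kg-day, and 0, 0 and 0.427 at 2 mg/kg-day. The highest value of all embryos was thus in a vehicle lineage, and the other 5 vehicle males of F3 were at or below 0.705. Ordered by median, F2 females at 0.033 mg/kg-day came first (286), then F1 females at 0.033 mg/kg-day (34.6, of 2 embryos) and F1 females at 0.2 mg/kg-day (9.93). The other 21 medians lay between 0 and 1.98, and their groups overlapped.

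**Figure D1:**
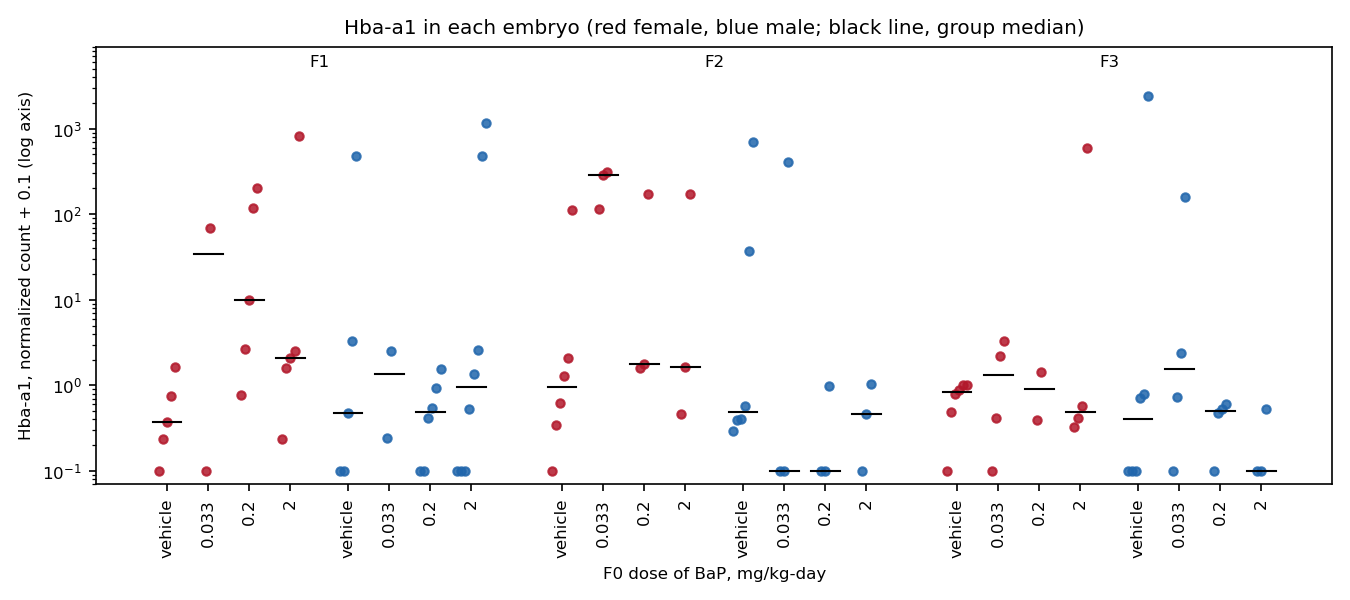
Hba-a1 in each embryo (normalized count + 0.1, log axis) by generation, sex and F0 dose of BaP in mg/kg-day. Points are embryos, red female and blue male, and black lines are group medians. Levels lie at 36.9 or above in 19 libraries and at 9.93 or below in the other 82.

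By generation, 7 of 38 F1, 9 of 30 F2 and 3 of 33 F3 libraries had Hba-a1 above 30. By dose they were 5 of 34 after vehicle, 6 of 18 at 0.033 mg/kg-day, 3 of 23 at 0.2 mg/kg-day and 5 of 26 at 2 mg/kg-day. By sex they were 8 of 53 males and 11 of 48 females. Such libraries were thus present in each generation, at each dose and in both sexes. The order of the doses did not follow the dose. Depth did not mark them either, as 1 of the 11 deep F1 libraries (C4242.1) was among the 19.

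Hbb-bs, the adult beta chain, was at 0 in 66 embryos and reached 648 in D1388.1. It was above 1 in 18 embryos, all of them among the 19 with high Hba-a1. After D1388.1 followed F1 2 mg/kg-day female D2582.1 (135), F2 vehicle male D2991.3 (129) and F1 vehicle male D2580.2 (96.7). The 1 library of the 19 without Hbb-bs was F1 2 mg/kg-day male D2593.1, at 0. No library of 9.93 or less Hba-a1 had more than 0.616 Hbb-bs, 0.208 Hba-x or 0.324 Hbb-y. The adult alpha and beta chains were therefore high in the same libraries. Over all embryos the Pearson correlation of Hba-a1 and Hbb-bs on the log2 scale was 0.915 (Spearman 0.692), a value that rests on these few high libraries.

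Hba-x, the embryonic alpha chain, was at 0 in 81 embryos, and Hbb-y, the embryonic beta chain, in 80. Both were above 10 in the same 6 libraries. F1 2 mg/kg-day males D2593.1 and D2587.2 had 182 and 162 Hba-x and 45.7 and 125 Hbb-y. F3 2 mg/kg-day female E0103.2 had 178 Hba-x and 69.6 Hbb-y, and F2 2 mg/kg-day female D3620.3 had 38.3 and 28.8. In the F2 0.033 mg/kg-day lineage, female D2256.3 had 30.8 Hba-x and less Hbb-y, and male D3136.1 had 26.3 and 31.2. The next level was that of D1388.1, with 3.55 Hba-x and 6.09 Hbb-y, and all other libraries were at or below 0.243 and 0.324. Of the 6 libraries, 4 were at 2 mg/kg-day and 2 at 0.033 mg/kg-day. None was among the 34 vehicle embryos or the 23 embryos at 0.2 mg/kg-day, of which the latter had at most 0.208 Hba-x. On the log2 scale Hba-x and Hbb-y had a Pearson correlation of 0.989 over all embryos, again set by these libraries, against 0.606 for Hba-x and Hba-a1.

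**Figure D2:**
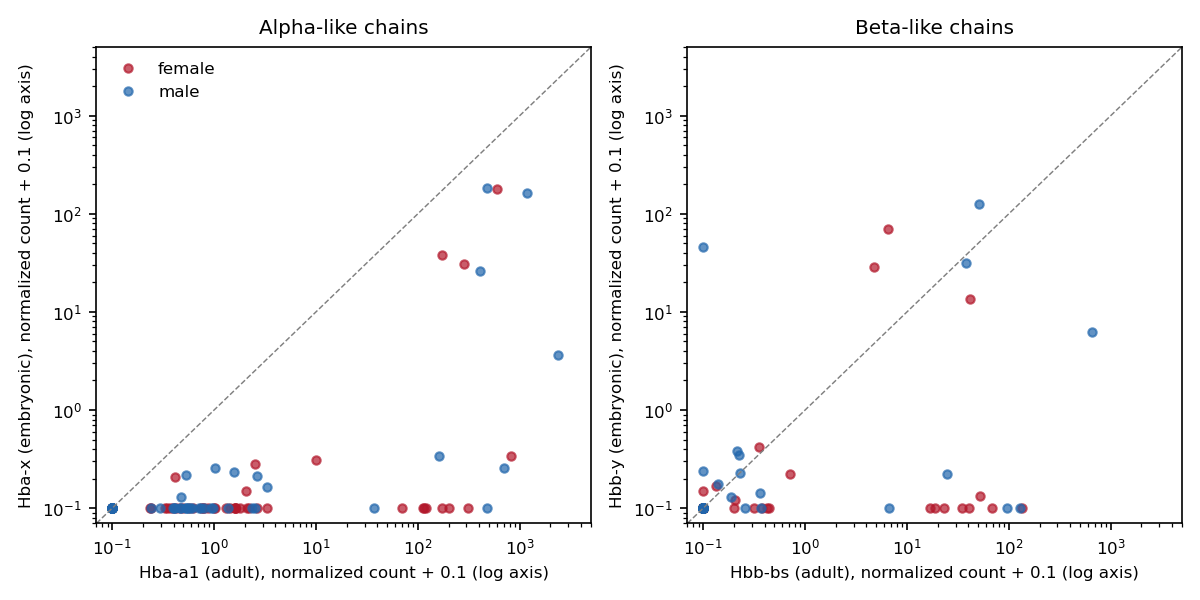
Embryonic against adult chain in each embryo (normalized count + 0.1, log axes), for the alpha-like chains Hba-x and Hba-a1 and the beta-like chains Hbb-y and Hbb-bs. The dashed line marks equal levels. The alpha-like embryonic chain stays below the adult one in every library with Hba-a1 above 30, while 4 of these have more Hbb-y than Hbb-bs.

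The share of embryonic chains differed widely among the high libraries. Of the alpha-like reads, Hba-x made up 27.5% (95% Wilson interval 26.2 to 28.8%) in D2593.1, 22.9% (21.8 to 24.0%) in E0103.2 and 18.3% (16.5 to 20.3%) in D3620.3. It made up 12.1% (at most 12.8%) in D2587.2, 9.72% (8.61 to 10.9%) in D2256.3 and 6.07% (at least 5.25%) in D3136.1. In D1388.1, with the most globin RNA, it made up 0.149% (0.103 to 0.216%). Among the beta-like reads the embryonic share was larger in each of these 7 libraries. Hbb-y made up all 295 beta-like reads in D2593.1, which allows Hbb-bs a share of up to 1.02%. It made up 91.7% (89.0 to 93.7%) in E0103.2, 86.0% (81.3 to 89.7%) in D3620.3 and 71.2% (68.6 to 73.7%) in D2587.2. It made up 45.2% (40.7 to 49.8%) in D3136.1, 24.6% (20.7 to 28.9%) in D2256.3 and 0.931% (0.703 to 1.23%) in D1388.1. Among the 19 high libraries, Hbb-y reads thus outnumbered those of Hbb-bs in 4. They also did so in 7 of the other 82, which had at most 9 Hbb-y reads each. Hba-x was above Hba-a1 in 0 embryos.

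The other 12 high libraries had nearly pure adult globins. They held 0 to 2 reads of Hba-x and of Hbb-y each. In F2 vehicle male D2991.3, 1 of 4539 alpha-like reads was embryonic and 0 of 829 beta-like reads, which allows a share of up to 0.362%. In F1 0.2 mg/kg-day female C4242.1, a deep library, none of 12821 alpha-like reads was embryonic, which allows up to 0.0234%. The loosest limit was that of F2 vehicle male C4992.2, in which 0 of 56 beta-like reads allows up to 5.36%. Littermates differed too. F2 0.033 mg/kg-day male D3136.1 had 174 embryonic alpha-like reads, and its sister D3136.2 had 0 of 2187.

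**Figure D3:**
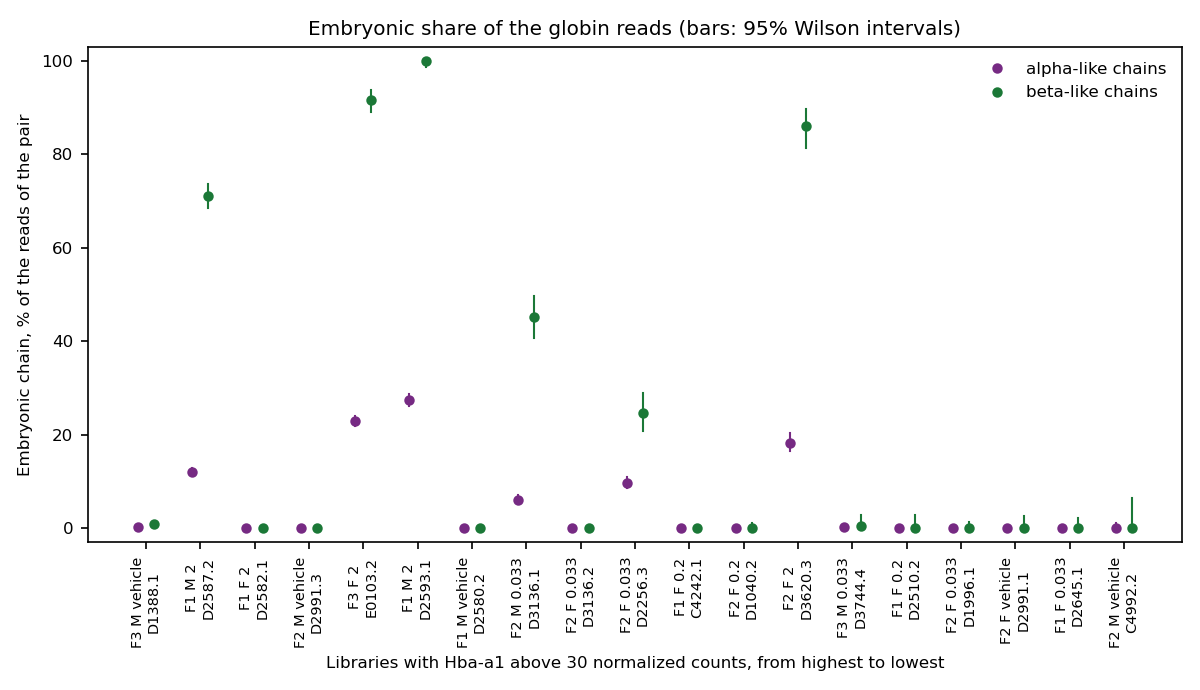
Embryonic share (%) of the alpha-like reads (Hba-x of Hba-x and Hba-a1) and of the beta-like reads (Hbb-y of Hbb-y and Hbb-bs) in the 19 libraries with Hba-a1 above 30, ordered from highest to lowest Hba-a1; bars are 95% Wilson intervals. In 6 libraries the alpha-like share is 6.07 to 27.5% and the beta-like share 24.6 to 100%.

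Per kilobase of exon, Hba-a1 was the highest of the 4 chains in all 19 high libraries. The order of the 4 was the same as in counts in 16 of them, and in 3 it was another, with Hbb-y above Hba-x in D2587.2 (198 and 173 per kb) and D3620.3 (45.5 and 40.9), and just above Hbb-bs in D3136.1 (49.34 and 49.32). In D1388.1, Hba-a1 had 2928, Hbb-bs 843, Hbb-y 9.62, Hba-x 3.79 and Alas2 1.11 normalized counts per kb. In D2593.1 the order was Hba-a1 (593), Hba-x (194), Hbb-y (72.2) and Hbb-bs (0). In the 19 libraries, the beta-like level was 0.0917 to 0.318 times the alpha-like level per kb. Reads of the alpha copies may have been counted at both genes or split between them, which changes this ratio.

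Alas2, the erythroid enzyme of heme synthesis, did not share this pattern. It ranged from 0 to 2.66 normalized counts with a median of 0.113, and was at 0 in 44 embryos. Its highest value was again that of D1388.1 (2.66), but the next was F2 vehicle male D3001.1 (1.94), which had 0.194 Hba-a1. F1 2 mg/kg-day male D2587.2 had 1177 Hba-a1 and 1.28 Alas2. F3 2 mg/kg-day female E0103.2 had 600.1 Hba-a1 and no Alas2 read. Over all embryos the Pearson correlation of Alas2 and Hba-a1 was 0.0973, and without the 2 embryos farthest from the median of Hba-a1 it was -0.07.

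The adult globins had the widest spread between embryos of all genes, and the embryonic ones were among the 11 widest. The SD of log2(normalized count + 0.5) within the 24 groups was 3.32 for Hba-a1 and Hba-a2, the first and second of 15423 genes. It was 2.41 for Hbb-bs (rank 3), 1.76 for Hba-x (rank 7) and 1.57 for Hbb-y (rank 11), with Hbb-b2 and Hbb-b1 at 2.37 on ranks 4 and 5. The median of all genes was 0.460. Other genes in this range were Rn4.5s (1.79), the mast cell protease Cpa3 (1.75), Nxf2 (1.58) and Erdr1 (1.58). Alas2 (0.577) had rank 3127. Differences between groups took 25.0% of the sum of squares of Hba-a1 and 22.3% of that of Hba-x, against a median of 35.8% over all genes. With 24 groups, group means take part of the sum of squares even where groups do not differ. The globins therefore varied mainly between embryos of the same sex, dose and generation, as did the median gene.

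**Figure D4:**
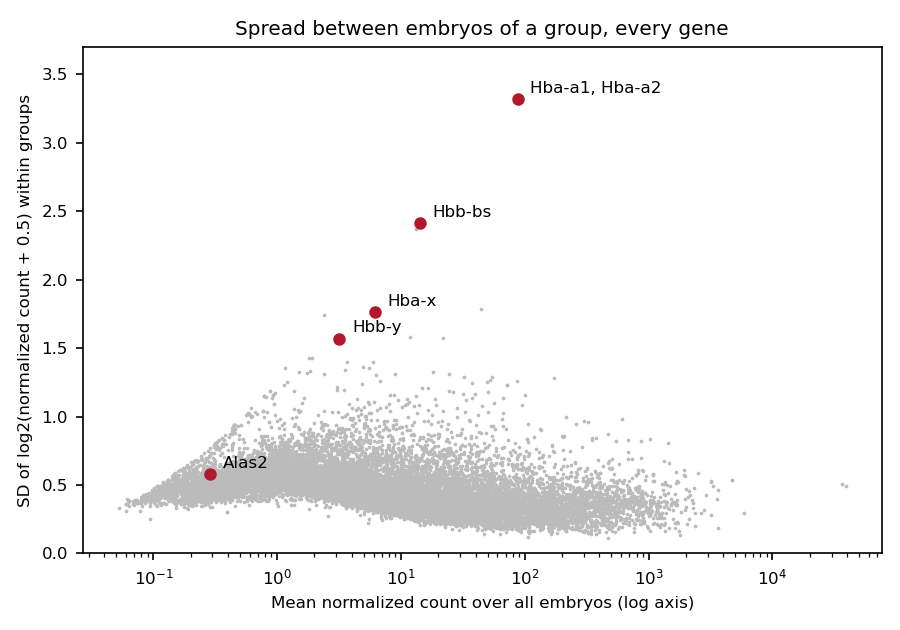
SD of log2(normalized count + 0.5) between embryos within the 24 groups against the mean normalized count (log axis) of each of the 15423 genes, in grey, with the measured globins and Alas2 in red. Hba-a1 and Hba-a2 (3.32) and Hbb-bs (2.41) lie highest, and the median of all genes is 0.460.

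The spread was found within litters. Of 44 litters with 2 or 3 embryos measured, 30 had no library with Hba-a1 above 30, 12 had 1 and 2 had 2. The 2 litters with both embryos high were F2 0.033 mg/kg-day litter D3136 (308 and 406) and F2 vehicle litter D2991 (112 and 707). In the others, sibs stood far apart, such as 0.701 and 2378 in litter D1388, 0.136 and 1177 in D2587, or 0 and 826 in D2582. The remaining 3 high libraries had no measured littermate. The intraclass correlation of dam, on deviations from the group means, was 0.0116 for Hba-a1, 0.129 for Hbb-bs, -0.152 for Hba-x and -0.116 for Hbb-y. For the 13288 genes with a mean of at least 0.5 the median was 0.228, and the 4 globin values all lay below it.

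Males and females of the vehicle lineages were compared to see whether the globins differed between the sexes. Of the 17 vehicle males, 4 had Hba-a1 above 30, and of the 17 vehicle females, 1. Hba-a1 ranged from 0 to 2378 in vehicle males with a median of 0.374, and from 0 to 112 in vehicle females with a median of 0.648. Hbb-bs ranged from 0 to 648 and from 0 to 16.6, each with a median of 0. The limma fit, with Benjamini-Hochberg adjustment over all genes tested, called 56.5% of the 13288 genes tested between the sexes and 0 of the 5 globins, of which 0 had an unadjusted p under 0.05, against 60.6% of all genes tested. The log2 fold change on the scale of log2(normalized count + 0.5) was 1.39 (SE 1.08) for Hba-a1, with an adjusted p of 0.278, and 1.45 (SE 0.79) for Hbb-bs, with an adjusted p of 0.110. For Hba-x it was 0.22 and for Hbb-y 0.24.

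The count-based tools gave another answer for the same comparison. On recovered reads, edgeR's quasi-likelihood test called Hba-a1 and Hba-a2 (log2 fold change 4.81, adjusted p 0.00190) and Hbb-bs (5.67, adjusted p 0.000131), and its likelihood ratio test called all 5 globins. Over all 13291 genes these tests called 55.5% and 56.2%, so a call is common in this comparison. Without D1388.1, the quasi-likelihood test still called 3 globins, beside 54.9% of all genes, at 3.35 (adjusted p 0.0205) for Hba-a1 and 3.82 (adjusted p 0.00573) for Hbb-bs. In a limma fit of the vehicle embryos alone with dam as a block, Hbb-bs was called (1.63, adjusted p 0.0358), as were 60.5% of all genes. The likelihood ratio calls of Hba-x and Hbb-y come with high values in D1388.1 alone (3.55 and 6.09), while every other vehicle embryo had at most 0.156 and 0.130. The fits placed vehicle males higher in each call. High Hba-a1 and Hbb-bs among vehicle embryos were found in 4 male libraries (D1388.1, D2991.3, D2580.2 and C4992.2) and 1 female library (D2991.1). D2991.3 and D2991.1 are sibs.

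Alas2 had a mean below 0.5 and was left out of the main test. It was 0 to 2.66 in vehicle males (median 0.460, at 0 in 2 of 17) and 0 to 0.481 in vehicle females (median 0.108, at 0 in 8 of 17). In the limma fit without a minimum mean, over 15423 genes, Alas2 was higher in vehicle males with a log2 fold change of 0.77 and an adjusted p of 0.000278, in a fit that called 52.9% of all genes. The male somatic markers moved with sex as well. The sum of 6 of 6 Sertoli cell genes (Cst9, Aard, Sox9, Dhh, Amh and Fgf9) was 54.6 to 975 in vehicle males (median 532) and 11.8 to 36.2 in vehicle females (median 19.9), with Cst9 the most abundant. Their part in the Alas2 result was not tested.

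Dose was examined first with all generations together. In dosed females, Hba-a1 was above 30 in 4 of 9 embryos at 0.033 mg/kg-day, 3 of 10 at 0.2 mg/kg-day and 3 of 12 at 2 mg/kg-day, against 1 of 17 after vehicle. In dosed males it was above 30 in 2 of 9, 0 of 13 and 2 of 14, against 4 of 17. The limma fit of all doses against vehicle called 0% of 13288 genes in females and 0% in males, and 0 of 5 globins in either sex. In females, 3 globins had an unadjusted p under 0.05, as did 8.67% of all genes tested; Hba-a1 and Hba-a2, nearly equal in value, are both counted. The log2 fold change was 2.52 (SE 0.95) for Hba-a1, with an adjusted p of 0.563, and 1.78 (SE 0.70) for Hbb-bs, with the same adjusted p. In males, where 0 had an unadjusted p under 0.05, it was -0.96 for Hba-a1 and -1.12 for Hbb-bs. The difference between the sexes in this response was 3.48 (SE 1.34) for Hba-a1, with an unadjusted p of 0.0106 and an adjusted p of 0.999. The likelihood ratio test also called 0 globins, and of all genes 0.0301% in females and 0.00752% in males. The quasi-likelihood test called 0.00752% of all genes in females and 0.0301% (4 genes) in males, 1 of these a globin, Hbb-bs, at -5.52 with an adjusted p of 0.00421. Without D1388.1, a vehicle male, it called 0% of all genes in males and 0 globins, and the lowest adjusted p of a globin was 0.670. The 1 call thus rested on D1388.1.

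Each dose was then compared with vehicle of the same sex and generation in 18 comparisons. The limma fits called 0 of 5 globins in each of them, while they called 0.00733% of the 13635 genes tested in F1 females at 2 mg/kg-day, 0.145% of the 13083 genes tested in F2 males at 0.2 mg/kg-day, and 0% in the other 16. Of the 90 tests of globins, 9 had an unadjusted p under 0.05 with limma. Of all genes tested, 0.183 to 15.4% did in a comparison, with a median of 3.55%. Of the edgeR tests of globins, 38 of 90 had such a p with the quasi-likelihood test (0.249 to 10.9% of all genes). With the likelihood ratio test 38 of 90 did (0.367 to 11.8%). Both tests called 0 globins. Of all genes, the quasi-likelihood test called 0 to 0.0381% in a comparison and the likelihood ratio test 0 to 0.693%, each with a median of 0%. The counts of globins include Hba-a1 and Hba-a2 separately, and the globins were high in the same libraries, so the tests repeat each other. The comparisons of a generation share their vehicle embryos within each sex.

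The widest dose differences were those of F2 females at 0.033 mg/kg-day, in which all 3 embryos were high. In the limma fit the log2 fold change was 6.51 (SE 2.04) for Hba-a1 and 5.69 (SE 1.51) for Hbb-bs, both with an adjusted p of 1. By p-value, Hbb-bs was the 3rd and Hba-a1 the 22nd of 13083 genes. Leaving out 1 F2 embryo at a time in 30 refits, the Hba-a1 difference stayed between 6.06 and 7.62, and its lowest adjusted p was 0.736. In F1 females at 0.2 mg/kg-day, Hba-a1 had a log2 fold change of 4.12 (SE 1.98), with an adjusted p of 1. The embryonic chains had their lowest p-values at 2 mg/kg-day. In F1 males the log2 fold change was 2.13 (SE 0.97) for Hba-x and 1.85 (SE 0.84) for Hbb-y, with adjusted p of 1 in the limma fit, and rested on D2587.2 and D2593.1 of 8 embryos. In F3 females it was 2.12 (SE 0.91) for Hba-x and 1.78 (SE 0.82) for Hbb-y, with adjusted p of 0.267 and 0.298 in the limma fit, and rested on E0103.2 of 4 embryos. No difference passed the test, and each was carried by 1 to 3 libraries.

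Generations were compared in the vehicle lineages, in which 1 of 10 F1, 3 of 12 F2 and 1 of 12 F3 embryos had Hba-a1 above 30. Median Hba-a1 was 0.322, 0.502 and 0.658. The limma fit called 0% of 13182 genes between F2 and F1, 0% between F3 and F1 and 0% between F3 and F2. It called 0 of the 3 globins tested (Hba-a1, Hba-a2 and Hbb-bs), and 0 had an unadjusted p under 0.05. Both edgeR tests also called 0 globins. Of all 13178 genes, the quasi-likelihood test called 1 between F2 and F1, 1 between F3 and F1 and 0 between F3 and F2. The likelihood ratio test called 5, 11 and 0. In the limma fit, the log2 fold change of Hba-a1 was 0.97 (SE 1.27) between F2 and F1, -0.02 between F3 and F1 and -0.99 (SE 1.21) between F3 and F2. Hba-x and Hbb-y had too low a mean in vehicle embryos to be tested. In these 34 embryos Hba-x was at most 3.55 and Hbb-y at most 6.09, both in D1388.1.

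Other erythroid genes were read beside the globins. Klf1, the activator of the adult beta gene, was at 0.114 to 4.34, and its highest values were those of D2593.1 (4.34) and D1388.1 (2.92). Klf1 was above 0 in every embryo, high or low in globins.

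The sum of the 9 of 12 listed erythroid transcription factors measured was 15.2 to 41.4 normalized counts, with a median of 27.9 and 38.1 in D1388.1. Bcl11a, Ldb1 and Myb were the most abundant (means 7.68, 6.51 and 6.39). Of the red cell membrane and surface genes read, Icam4, Tmod1 and Epb4.1 were the most abundant (means 7.81, 7.63 and 5.87). The sum of 13 of 19 genes of maturation and iron uptake was 873 to 1572, and that in D1388.1 was 881. It was made up mostly of Prdx2 (546), Bnip3l (468) and Tfrc (65.5), genes with wide expression. These 2 sums each spanned less than 3-fold over all embryos, against a range of Hba-a1 from 0 to 2378. Among heme synthesis genes, Alad had a mean of 249 and Tmem14c of 132. Gata1, Tal1, Slc4a1, Ahsp and Epor were not analysed here.

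These erythroid lists also held genes that differ between male and female PGCs. Of the 13288 genes tested in vehicle embryos, 3703 were higher and 3799 lower in males, with a median log2 fold change of 0.0019. Of 8 erythroid transcription factors tested, 5 were higher in males (Bcl11a by 2.87, Nfe2 by 1.53, Sox6 by 0.47, Klf1 by 0.39 and Myb by 0.37 on the log2 scale) and 2 were lower (Lmo2, -0.87, and Zfpm1, -1.18), and the median was 0.38. Of 8 membrane genes, 2 were higher (Rhd by 2.71 and Tspo2 by 1.93) and 2 lower (Epb4.1, -0.77, and Gypc, -0.66), and the median was -0.22. Rhd, with a median of 3.29 over all embryos, was high in libraries with little and with much globin. It was highest in F1 0.033 mg/kg-day male D2645.2 (23.8), which had 0.141 Hba-a1, and was 20.8 in D2587.2 and 19.7 in D1388.1, the 2 libraries with the most Hba-a1.

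Of 11 maturation genes tested, 1 was higher in males (Bpgm by 0.28) and 5 lower (Tspan33, -1.63, Blvrb, -1.25, Tfrc, -0.59, Slc11a2, -0.36, and Xpo7, -0.26), with a median of -0.26. Among heme synthesis genes, Urod (by 0.97), Slc25a38 (0.64) and Uros (0.39) were higher, and Alas1 (-0.77), Abcb10 (-0.54), Tmem14c (-0.46), Cpox (-0.45) and Fech (-0.33) were lower. Alas1, the widely used form of the enzyme, was thus lower in vehicle males, while Alas2, the erythroid form, was higher. In the other 23 comparisons no gene of any list was called.

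Markers of other cells of the gonad and blood peaked in libraries with high or with low globins, depending on the cell type. The sum of 5 of 5 stroma genes (Dcn, Col3a1, Pdgfra, Nr2f2 and Col1a1) was 0 to 61.5 with a median of 1.59, and that of 5 of 5 fetal Leydig genes (Hsd3b1, Star, Insl3, Cyp11a1 and Cyp17a1) was 1.05 to 36.3 with a median of 3.92. Both were highest in D1388.1. In D2587.2, second in Hba-a1, they were 1.14 and 2.56. The sum of 14 of 14 macrophage genes, led by C1qb, Fcer1g and Tyrobp, was 2.30 to 205 with a median of 20.8. It was highest in C4242.1 (203 Hba-a1) and was 4.19 in D1388.1. The sum of 6 of 8 platelet genes, led by Ppbp, Gp1bb and Pf4, was 0.547 to 89.6 with a median of 2.85, and was highest in F1 0.2 mg/kg-day male D1190.1 (0.318 Hba-a1). This embryo was also highest in Cpa3 (39.9), the 1 of 7 granulocyte and mast cell genes measured, which was at 0 in 74 embryos.

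The sum of 8 of 10 endothelial genes, led by Pecam1, Plvap and Egfl7, was 22.9 to 108 and was highest in F3 0.2 mg/kg-day female D4021.1 (0.296 Hba-a1). That of 4 of 5 pregranulosa genes, led by Rspo1, Wnt4 and Fst, was 0.862 to 24.5, with a median of 3.10. It was highest in F3 0.033 mg/kg-day female D3744.1 (0.318 Hba-a1) and was 11.5 in D1388.1, where Rspo1 had its highest value (9.01). The sum of the Sertoli genes was 11.8 to 1723 and was highest in F1 0.033 mg/kg-day male D2595.1 (2.40 Hba-a1). The highest value of each of these sums was thus found in a library with little globin. The part of other cells in the globin levels was not tested. Between vehicle males and females, genes of these lists also differed. Cst9 (by 9.04), Sox9 (by 3.15), Dhh (by 2.59), Aard (by 2.38), Amh (by 2.12), Fgf9 (by 0.57), Hsd3b1 (by 2.21) and Ramp2 (by 0.88) were higher in males, and Itga2b (-1.37), Wnt4 (-1.08), Gp1bb (-0.97), Plvap (-0.60), Insl3 (-0.55) and Pecam1 (-0.43) were lower. Of the germ cell genes, Dppa5a (by 1.14), Nanos3 (by 0.95), Pou5f1 (by 0.80), Dppa3 (by 0.57) and Prdm1 (by 0.45) were higher in males, and Tfap2c (-0.90), Kit (-0.59), Dazl (-0.52) and Ddx4 (-0.48) were lower.

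Genes with levels most like those of the globins were looked for. Among 8481 other genes with a mean of at least 5, Hbb-b1 and Hbb-b2, which share sequence with Hbb-bs, had the highest Pearson correlation with the mean log2 level of the 5 globins over all embryos (0.891). They were the 2 genes above 0.4 over all embryos. Next came Rnasek (0.331), Eif4e2 (0.330), 1810012P15Rik (0.323), Tmsb10 (0.320), Chchd1 (0.316), Stra13 (0.316), 3110009E18Rik (0.313) and Fam165b (0.311). Without the 2 embryos farthest from the median, the correlation was 0.874 for Hbb-b1 and Hbb-b2 and 0.367 (Rnasek) to 0.461 (1810012P15Rik) for these 8 genes. The correlations of the 8 were weak with and without these embryos.

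The genes beside the globins on the chromosome did not follow them. The alpha cluster lies at chr11:32276600-32297310 (GRCm38.p6), in the order Hba-x, Hba-a1, Hba-a2, and the measured beta genes Hbb-bs and Hbb-y lie at chr7:103826523-103853207. Within 100 kb of the alpha cluster, 5 other genes were measured. Nprl3, which holds the major enhancers of the alpha genes in its introns, had a median of 12.6 and a value of 23.5 in D1388.1, with a Pearson correlation with Hba-a1 of -0.26. Mpg had a median of 39.4 and a value of 40.7 in D1388.1. Snrnp25 had a median of 299 and a value of 210.1 in D1388.1, and Rhbdf1 and Sh3pxd2b were at 0.381 and 0.761 in it. No other gene within 100 kb of the beta cluster was measured, apart from those named above.

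Promoters of genes that were high in the same libraries are shown from RefSeq (GRCm38.p6), since the adult alpha, adult beta and embryonic beta chains appeared in different mixtures. All 6 measured genes had an entry of 250 bases before the start. Capitals mark CCAAT (the CCAAT box), CACCC (the CACCC box) and TATAA (the TATA box), known from globin promoters, where they were found on the strand shown. The promoters are those of Hba-a2 at chr11:32296372-32296491 (+ strand), Hbb-bs at chr7:103827929-103828011 (- strand) and Hbb-y at chr7:103853208-103853327 (- strand), each 5′ to 3′.
Hba-a2: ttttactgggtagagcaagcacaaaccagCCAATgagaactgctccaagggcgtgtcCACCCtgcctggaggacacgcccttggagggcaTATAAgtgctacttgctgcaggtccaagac
Hbb-bs: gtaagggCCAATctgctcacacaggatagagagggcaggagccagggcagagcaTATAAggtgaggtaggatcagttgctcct
Hbb-y: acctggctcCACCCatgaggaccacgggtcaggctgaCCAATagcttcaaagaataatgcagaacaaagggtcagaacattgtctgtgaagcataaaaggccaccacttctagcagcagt

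In the 250 bases before the start, on either strand, CCAAT was found for Hba-a1, Hba-a2, Hbb-bs and Hbb-y and not for Hba-x or Alas2. CACCC was found for all 6 genes, 3 times for Alas2. TATAA was found for all but Hbb-y, and GATAA for all 6. Among 32817 promoters of this length, 33.8% held CCAAT, 52.0% CACCC, 22.8% TATAA and 22.6% GATAA. The sequences of Hba-a1 and Hba-a2 were identical over 297 bases, a stretch that also holds bases past the start. A match of these letters is a description and not a binding site.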

How the data were processed

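RNA-seq values of all embryos were taken from the table the authors deposited, in which each signal value is a gene count the authors had scaled with TMM in edgeR (reads trimmed by Trim Galore, mapped to mm10 by STAR, and assigned to genes by Rsubread); versions were not given in the sources used here. Generation, sex, dose and dam were taken from the sample labels. In 99 embryos, 100% of 1423762 nonzero values lay within 0.05 of a whole multiple of 1 read, and reads were recovered; F3 2 mg/kg-day male D4190.1 and F3 vehicle female D1388.3 entered no edgeR test. Limma 3.58.1 in R 4.3.3 was fitted (eBayes with trend) to log2(normalized count + 0.5), which understates differences at low values, over genes with a mean of at least 0.5, with Benjamini-Hochberg adjustment and a threshold of 0.05. One fit of 8 sex-by-dose groups over all embryos gave the sex and all-dose comparisons, 1 fit of the 34 vehicle embryos the generations, and 1 fit per generation the doses. The scripts were tested on simulated data. Alternatives used other pseudocounts, filters and scalings, edgeR 4.0.16 on recovered reads, dam as a block, and embryos left out. Shares have 95% Wilson intervals, and a share of 0 a limit of 3 reads. Summaries and figures were made in Python 3.11.15 with pandas 2.3.3, scipy 1.17.1 and matplotlib 3.10.9. Named genes are every member, up to 3 of the most abundant genes of each cell type or pathway list, list genes called in a comparison given, and the 10 genes most correlated with the globins; other genes named (such as those of widest spread and chromosomal neighbours) were chosen after their values were seen. Members and lists were chosen with earlier results of these data known. Some list genes, and list totals that include them, are not reported here.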

Additional observations from a re-analysis of the deposited data

Results flagged for a closer look

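Within the 14 groups of 4 to 10 embryos, each gene with a value above 3 reads was examined for a single embryo far from the others (Dixon's test at the 95% level), and 29 of the 44 sets examined had one. The rate of about 1 in 20 that chance gives holds for normally spread values and was not tested for these counts, which are mostly near 0 and entered only where a value was above 3 reads, so the flags are a description. In F1, Hba-a1 stood apart in female D2582.1 (826) and male D2587.2 (1177) at 2 mg/kg-day and vehicle male D2580.2 (479). In F2 it stood apart in vehicle female D2991.1 (112) and vehicle male D2991.3 (707). In F3 it stood apart in 2 mg/kg-day female E0103.2 (600.1), 0.033 mg/kg-day male D3744.4 (160.5) and vehicle male D1388.1 (2378).

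Hbb-bs stood apart in the same embryos, at 135 in D2582.1, 50.6 in D2587.2, 96.7 in D2580.2, 16.6 in D2991.1, 129 in D2991.3, 6.34 in E0103.2, 24.6 in D3744.4 and 648 in D1388.1. At low levels it also did so in F1 vehicle female C4232.9 (0.106) and F1 0.2 mg/kg-day male C4228.1 (0.267), both deep libraries.

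Hba-x stood apart in E0103.2 (178), D1388.1 (3.55) and, at a low level, F1 0.2 mg/kg-day female C4228.3 (0.208). Hbb-y stood apart in D2587.2 (125), E0103.2 (69.6), D1388.1 (6.09) and, at a low level, F1 2 mg/kg-day female C4219.4 (0.324). Alas2 stood apart in D1388.1 (2.66), F1 0.2 mg/kg-day male D2506.3 (1.73), F1 0.2 mg/kg-day female C4228.3 (0.521) and F2 vehicle female D2996.1 (0.481). The cause was not tested.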

How the results depend on the processing

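The number of measured genes of the 8 called between vehicle males and vehicle females, 0 with limma, depended on the tool and the genes kept. It was 1 with no filter on low values (Alas2, which then entered the test, and no globin), 3 with edgeR's quasi-likelihood test, 5 with its likelihood ratio test, and 3 with the quasi-likelihood test without D1388.1, a setting chosen after seeing the data. Of all genes, these 4 settings called 52.9%, 55.5%, 56.2% and 54.9%. The lowest adjusted p over these settings was 0.000131. It stayed 0 with pseudocounts of 0.1 and 1, a minimum mean of 5, both other scalings, generation as a term, and without the deep F1 libraries (also chosen after seeing the data). With dam as a random block it was 0, and with dam as a fixed block in vehicle embryos alone it was 1 (Hbb-bs). The latter fit changed both the embryos fitted and the dam term, and these were not tested apart.

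For all doses against vehicle the count was 1 with the quasi-likelihood test (Hbb-bs in males) and 0 under all other settings tried, the same test without D1388.1 included. For single doses and for generations it was 0 under all settings tried, with lowest adjusted p of 0.0924 and 0.751, and 0 to 0 in 93 dose refits and 34 vehicle refits that each left out 1 embryo. Where a group was left with 1 embryo, it was assumed to vary like the others. Of all genes, the main limma fit called at most 0.145% in a single-dose comparison. The quasi-likelihood test called at most 0.0381% and the likelihood ratio test at most 0.693%. Between F3 and F1 vehicle embryos, the main limma fit called 0 of 13182 genes and the likelihood ratio test 11 of 13178. The cause of the differences between tools was not tested.

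Of the other values recomputed, 608 kept their direction and side of the threshold or moved by less than the spread, 19 moved further and 13 passed the threshold only under the alternative. None reversed. The median globin share of counts (6.5e-05%) moved by less than the spread between embryos. So did the median embryonic share of beta-like counts (0.711%, of 38 libraries with any), though it was 25.0% in males and 0% in females. That share ran from 0 to 100% between libraries, so its spread is a wide margin. Some of the 38 had very few beta-like reads, such as 1 each in C4258.2 and D3620.6. The medians by sex thus rest in part on single reads. Reads limit what can be seen, as a library of median depth can hold up to 0.372 normalized counts of a globin with a value of 0.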
